A study of Arabidopsis thaliana with 24 samples.

Results

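The comparison set wild type Arabidopsis thaliana cotyledons after 6 h of white light against wild type cotyledons after 1 h of the same light. It comprised 6 samples, 3 in each group, of the 24 samples in the series. Cotyledons are the seed leaves, and the question of the series was how the SAUR genes take part in the different light responses of organs. In all groups used, seeds were first given 3 h of white light (70 µmol/m2/s) to start germination and then a far-red treatment of 5 min (2 µmol/m2/s), and the seedlings grew in darkness for 4 days. Light-treated seedlings then spent 1 h or 6 h in white light of the same strength, and cotyledons and hypocotyls (the seedling stem) were taken separately. The dark cotyledons served here as the starting point and the wild type hypocotyls at 1 h and 6 h as the other organ. Per the labels, each group had 3 biological repeats. The authors deposited 1 value per group, taken as FPKM (fragments per kilobase of transcript, scaled to the mapped fragments), so every FPKM below is the authors' group value, with no spread of single samples. The depth behind each value is unknown. No group was labelled as kept dark until the later harvest, so the longer light and the later time of harvest cannot be told apart.

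A seedling that grows in the dark keeps its cotyledons small, closed and unpigmented and lives on stored lipid. Light, read by phytochromes, cryptochromes and the UV receptor, turns the cotyledon into a photosynthetic leaf: chlorophyll and photosystem proteins are made, reserves run down and cells expand. The first transcripts to respond are often those of transcription factors and of the circadian clock, whose morning genes are set by light, and many of their products repress their own pathway. In bulk tissue, fewer cells of a type and less RNA per cell cannot be told apart.

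The 1 h and 6 h values came from 2 tables, whose dark columns were identical in all 33557 genes, so both stand on 1 scale. A log2 fold below is log2((6 h FPKM + 1)/(1 h FPKM + 1)). Its standard error (SE) and p-value belong to the ratio with no pseudocount and were rebuilt from the authors' test statistics of each light time against dark, which makes them wide, since the dark samples enter both. The statistics also gave wider SEs than the authors' p-values: the normal deviate with that p was, at the median, 1.71 times the statistic. With the SE from the statistics, used throughout, 634 of 18698 genes tested (3.39%) were called at an adjusted p under 0.05. Of these, 270 (1.44%) were higher at 6 h and 364 (1.95%) lower. With no test, 1483 genes (7.93%) were at least 2-fold higher and 1404 (7.51%) at least 2-fold lower. Without a call, a gene is only undecided: with a narrower error, 0.5 of the summed variance, 1171 genes (6.26%) were higher and 1241 (6.64%) lower. The median log2 fold of all tested genes was -0.02.

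The genes called fell into 6 courses, by whether the authors' deposited table had already called the gene at 1 h against dark at a q-value under 0.05. Late rises, with no call at 1 h, were 164 genes (0.877% of those tested), and their median FPKM went from 10.2 in the dark and 9.84 at 1 h to 50.8 at 6 h. Late falls were 133 genes (0.711%), with median FPKM of 26.4, 25.1 and 5.41 at these points. Transient rises, higher than dark at 1 h and then lower at 6 h than at 1 h, were 159 genes (0.85%), with median FPKM of 17.9, 69.8 and 11.3. Transient falls, the reverse, were 61 genes (0.326%), with median FPKM of 16.2, 6.28 and 36.8. Another 45 genes (0.241%) went on rising and 72 (0.385%) went on falling. The 1 h samples enter both parts of a transient course, so an error in the 1 h value moves both.

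**Figure D1:**
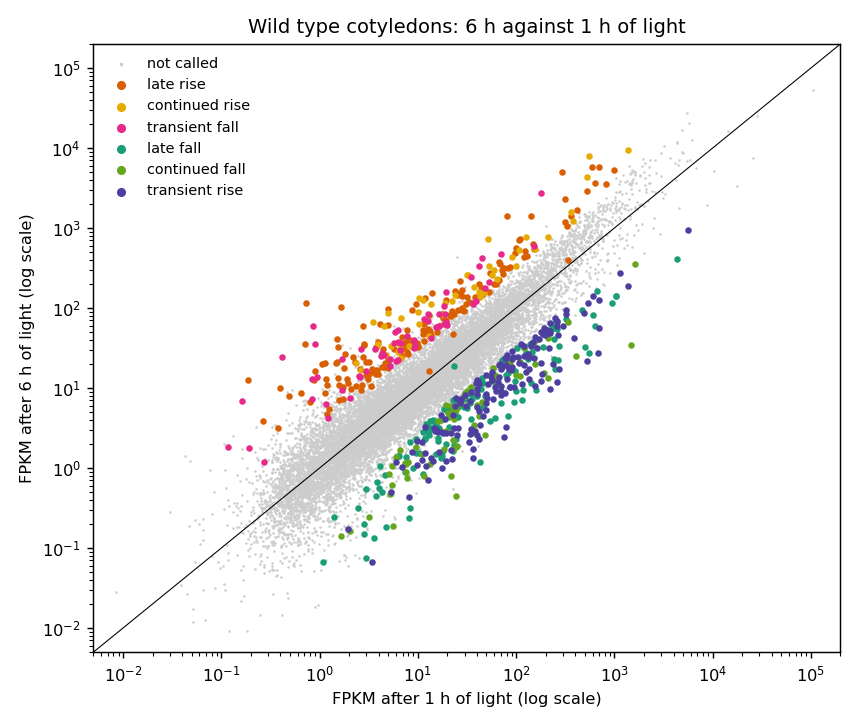
FPKM after 1 h (horizontal) and 6 h (vertical) of light in wild type cotyledons, both on log scales, with 1 point per tested gene and coloured points for the 6 courses. The 634 called genes lie away from the diagonal of equal values, except a few near it whose recovered error was very small, and transient rises make up much of the lower band.

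At 6 h, 101 of the 159 transient rises were within 2-fold of their dark value. The authors' deposited table called 81 of the 159 below dark at 6 h and 17 still above dark, and 61 were not called against dark at 6 h, where all tested genes gave 20% below and 23.9% above dark. Of the 61 transient falls, 51 ended above dark, 2 below, and 8 were not called. Read from 1 h, most early changes showed no call in the later interval. Of 1978 genes higher at 1 h (10.6% of those tested), 159 were lower at 6 h than at 1 h, 45 were higher and 1774 were not called, and of 1597 genes lower at 1 h (8.54%), 61 came back up, 72 went further down and 1464 were not called.

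The promoters of the transient rises are shown first because a short sequence was frequent in them. The G-box (CACGTG), the element read by bZIP factors such as HY5 and by bHLH factors such as the PIFs, stood in 45 of 157 promoters of transient rises (28.7%), in 16 of 121 of late falls (13.2%) and in 12 of 162 of late rises (7.41%). It stood in 12 of 70 promoters of continued falls (17.1%), in 1 of 60 of transient falls (1.67%) and in 1 of 45 of continued rises (2.22%). The share was 9.16% for promoters of tested genes and 7.68% for all 27443 promoters. Each course that was lower at 6 h than at 1 h was thus above the share of tested genes. A promoter is here the stretch from 250 bases before to 50 after the RefSeq gene start in TAIR10.1, searched on both strands. The 5 promoters below belong to genes described further on and are printed 5′ to 3′ on the strand of the gene. Capitals mark the G-box in PRR9, LHY, GBF3 and LEA18. In COR78 they mark GCCGAC, a form of the DRE core, the element of the cold and drought factors of the DREB and CBF family. The marked site begins at base 4 after the gene start. The form ACCGAC was not searched and stands unmarked in the printed COR78 and LEA18 sequences. These genes were chosen after their values and motifs were seen, and a match is no proof of binding.
PRR9, chr2:19232357-19232656, plus strand: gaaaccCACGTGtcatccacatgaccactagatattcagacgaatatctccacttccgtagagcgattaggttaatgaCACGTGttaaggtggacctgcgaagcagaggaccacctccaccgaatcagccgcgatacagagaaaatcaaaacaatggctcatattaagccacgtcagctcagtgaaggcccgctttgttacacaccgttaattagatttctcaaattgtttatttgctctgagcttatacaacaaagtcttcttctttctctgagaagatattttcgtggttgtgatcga
LHY, chr1:37822-38121, minus strand: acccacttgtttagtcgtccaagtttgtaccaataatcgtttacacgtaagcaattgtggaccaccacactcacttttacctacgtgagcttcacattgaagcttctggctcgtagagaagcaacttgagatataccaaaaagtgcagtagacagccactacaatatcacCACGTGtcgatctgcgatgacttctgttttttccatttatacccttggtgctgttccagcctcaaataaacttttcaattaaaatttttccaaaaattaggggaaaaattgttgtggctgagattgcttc
GBF3, chr2:18999930-19000229, plus strand: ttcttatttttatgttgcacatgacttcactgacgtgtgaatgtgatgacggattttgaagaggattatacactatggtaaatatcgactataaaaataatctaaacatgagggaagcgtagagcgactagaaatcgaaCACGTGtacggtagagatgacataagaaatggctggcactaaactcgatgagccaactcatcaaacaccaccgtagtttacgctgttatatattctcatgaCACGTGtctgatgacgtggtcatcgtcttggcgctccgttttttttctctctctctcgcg
LEA18, chr2:14863363-14863662, minus strand: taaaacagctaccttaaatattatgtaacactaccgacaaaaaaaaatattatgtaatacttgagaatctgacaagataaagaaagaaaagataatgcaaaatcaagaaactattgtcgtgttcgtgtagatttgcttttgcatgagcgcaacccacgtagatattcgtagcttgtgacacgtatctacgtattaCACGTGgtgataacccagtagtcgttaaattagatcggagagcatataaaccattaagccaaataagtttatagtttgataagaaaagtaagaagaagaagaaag
COR78, chr5:21240467-21240766, plus strand: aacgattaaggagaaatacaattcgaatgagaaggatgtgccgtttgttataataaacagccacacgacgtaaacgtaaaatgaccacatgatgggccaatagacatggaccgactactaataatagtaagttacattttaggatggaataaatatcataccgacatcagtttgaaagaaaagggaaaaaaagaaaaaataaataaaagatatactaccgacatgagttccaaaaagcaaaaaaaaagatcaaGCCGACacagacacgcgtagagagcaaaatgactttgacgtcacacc

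The GCCGAC form of the DRE core stood in 16 of 157 promoters of transient rises (10.2%) and in 3.76% of those of tested genes (3.28% of all promoters). The telo box (AAACCCTA) and site II (TGGGCC), known from promoters of ribosomal protein genes, were rarer in transient rises, with 1.27% against 5.59% (6.22% of all) and 9.55% against 20.02% (15.5% of all). Late, transient and continued falls were low too, with 1.65%, 1.67% and 2.86% for the telo box. For site II they had 7.44%, 3.33% and 10%. Late rises had 5.56% and 20.99%, and continued rises 6.67% and 15.56%. Among late rises, 5 of 162 promoters (3.09%) held the E2F site (TTTCCCGC) of S phase genes, against 0.864% of tested genes and 0.798% of all. Among transient falls, 15 of 60 promoters held the heat shock element (GAANNTTC), a share of 25%, against 11.3% of tested genes and 11.6% of all. The G-box and the heat shock element read the same on both strands, and none of these strings holds another. The shares are descriptions with no test.

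**Figure D2:**
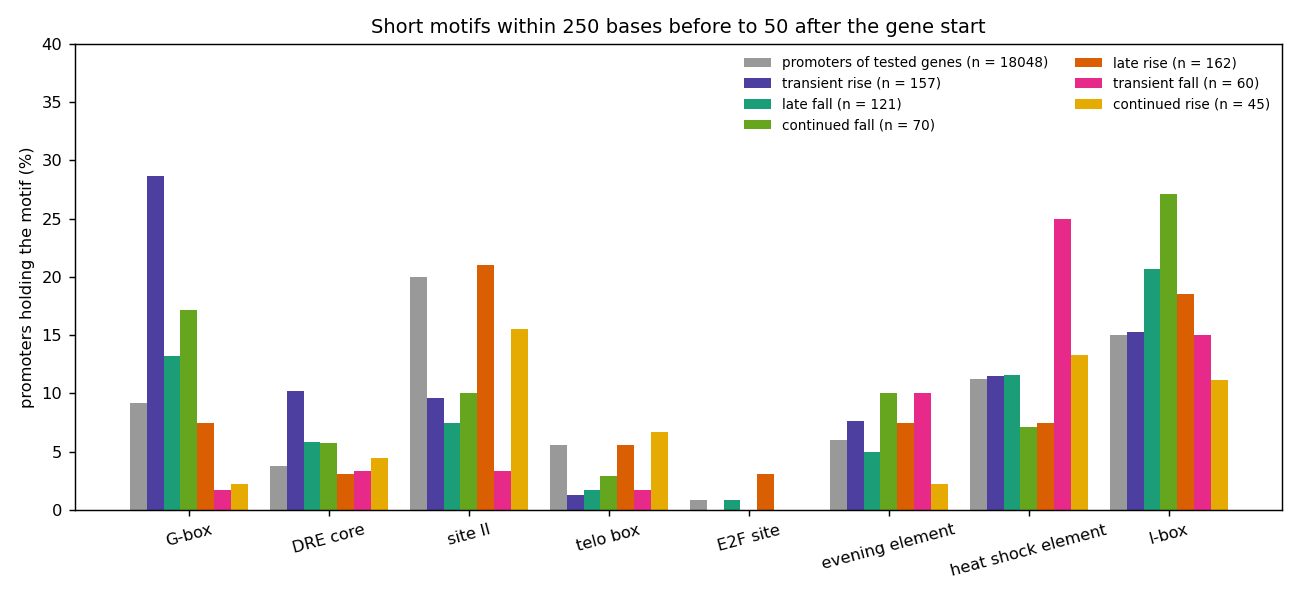
Share of promoters (%) that hold each of 8 short motifs in the window around the RefSeq gene start, with grey bars for promoters of all tested genes and coloured bars for the 6 courses (number of promoters in the key). The G-box bar of transient rises (28.7%) is the tallest of the plot and stands above the 9.16% of tested genes.

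Genes of cold, drought and abscisic acid (ABA) response formed the most lowered list. Abscisic acid is the hormone of drought and of seed dormancy, and its target genes carry G-box-like elements. Of 26 members tested, 16 were lower at 6 h than at 1 h and 0 were higher, against 1.95% and 1.44% of all tested genes. At least 2-fold lower were 21, against 7.51% of all tested genes, and the median log2 fold was -2.06. Of the 16, 8 were transient rises, 5 late falls and 3 continued falls. ABF3 (AT4G34000, chromosome 4, 16295430 to 16298255), a bZIP factor of ABA response, had 122 FPKM in the dark, 221 at 1 h and 9.77 at 6 h. Its level at 6 h was thus far under both earlier values, and its log2 fold was -4.36 (SE 0.56, adjusted p 2.87e-12). COR78 (AT5G52310, chromosome 5, 21240849 to 21243613), also called RD29A and a marker of cold and drought response, had 121, 276 and 17.41 FPKM, a log2 fold of -3.91 (SE 0.68, adjusted p 1.91e-06). The dehydrin gene ERD10 had 157, 245 and 23.1 FPKM and the related COR47 had 461, 604 and 82.2 FPKM. ERD7, a drought-induced gene, had 110, 143 and 11.6 FPKM. These 3 had no call at 1 h and count as late falls.

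The list covered several steps of the pathway. Among regulators, DREB2A, a drought factor that binds the DRE core, peaked at 135 FPKM at 1 h between 29.1 in the dark and 24.5 at 6 h. The phosphatase genes ABI1, HAB1 and HAI1, whose products hold back ABA signalling, were transient rises too, with 119, 52.3 and 5.29 FPKM at 1 h and 25.2, 11.2 and 0.509 at 6 h. NCED3, for the step that limits ABA synthesis, had 3.77 FPKM in the dark, 3.87 at 1 h and 0.667 at 6 h, a log2 fold of -1.55 (SE 0.71, adjusted p 0.016). The cold factors CBF1 and CBF2, neighbouring near copies whose reads could be split between them, went down at both times, from 14.8 and 32.7 FPKM in the dark to 0.472 and 1.5 at 6 h. Not all members followed. COR15B had 2.08, 30.6 and 60.4 FPKM, with a log2 fold of 0.96 (SE 1.02) that did not pass, and COR15A, its near copy, had 1.82, 41.3 and 18.0 FPKM (log2 fold -1.15, SE 0.90, not called). RAB18 and RD22 had log2 folds of -0.50 (SE 0.55) and -0.52 (SE 0.55), also not called.

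Of the 10 largest falls among called genes with a symbol and at least 5 FPKM, 8 were transient rises. A further 5 genes with no symbol here fell by more than the last of these 10, and 0 of them were transient rises; AT2G34020, a continued fall, had 71.4, 24.3 and 0.441 FPKM, a log2 fold of -4.13. ABCI21 (AT5G44110, chromosome 5, 17754064 to 17755742), for a protein of the ABC transporter family, had 26.3 FPKM in the dark, 688 at 1 h and 27.3 at 6 h. The spike was back at its dark level, with a log2 fold of -4.61 (SE 0.55, adjusted p 1.70e-13). LEA18 (AT2G35300, chromosome 2, 14862901 to 14863387), for a late embryogenesis abundant protein of the kind that protects drying cells, had 86.4, 530 and 21.8 FPKM, a log2 fold of -4.55 (SE 0.60). GBF3 (AT2G46270, chromosome 2, 19000191 to 19003403), a bZIP factor that binds the G-box, had 21.9, 79.5 and 3.26 FPKM, a log2 fold of -4.24 (SE 0.55). NAP, a NAC factor of senescence, had 43.0, 75.2 and 2.44 FPKM, a log2 fold of -4.47 (SE 0.62). FTM1, for a stearoyl-ACP desaturase, had 8.70, 36.7 and 1.34 FPKM, a log2 fold of -4.01 (SE 0.79). The other two of these 10 were not transient rises. DAA1, for an ATPase of the AAA family, was level at 83.3 and 82.5 FPKM until 1 h and had 4.47 at 6 h, and PORA is described with the chlorophyll genes.

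**Figure D3:**
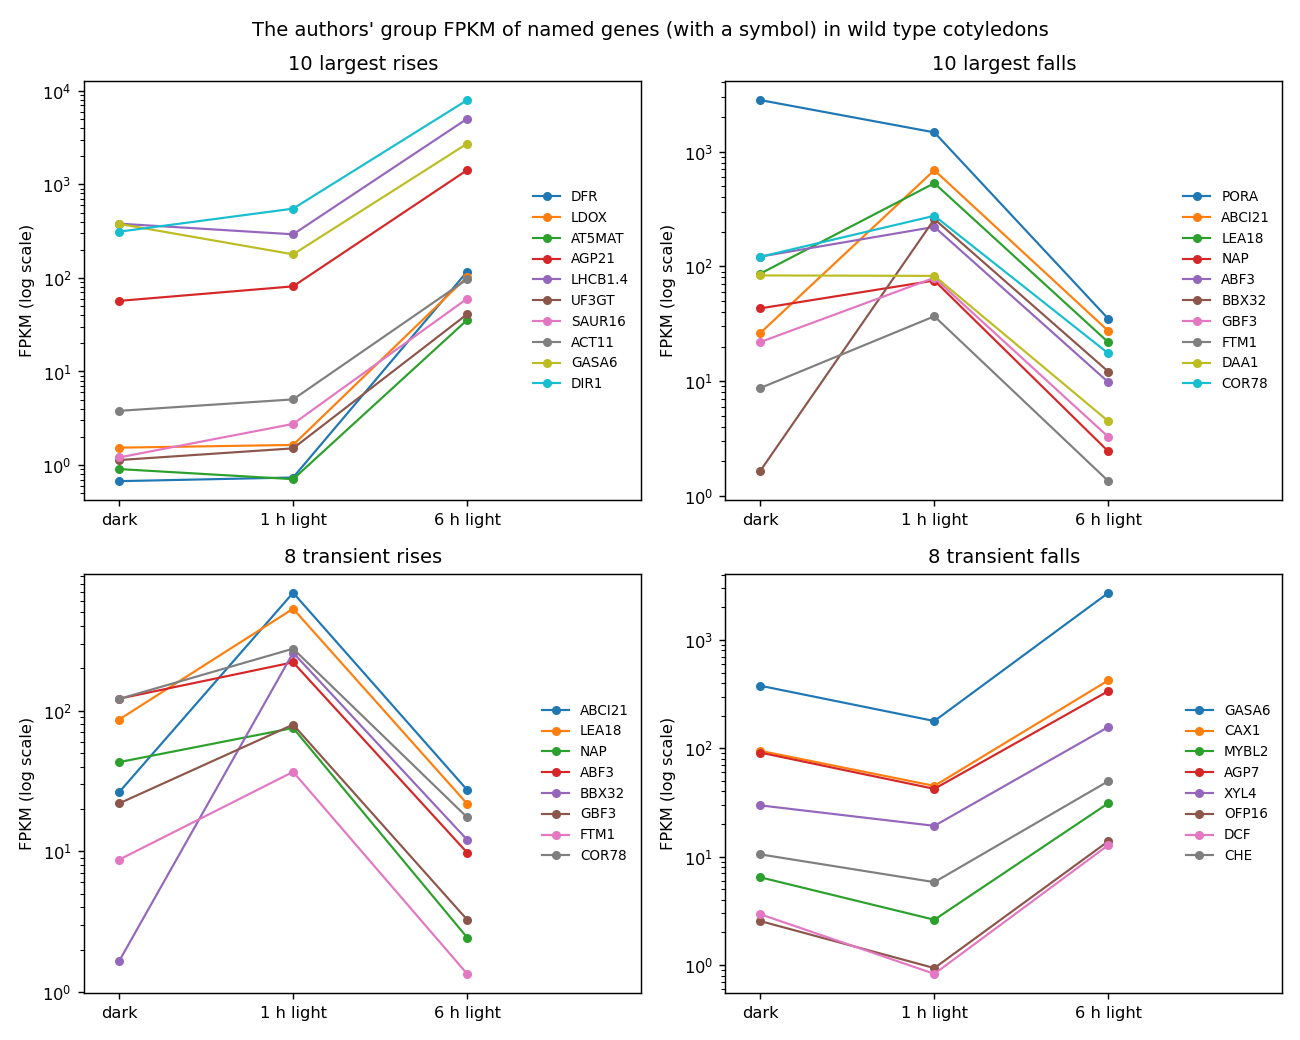
The authors' group FPKM (log scale) in the dark, at 1 h and at 6 h of light in wild type cotyledons for the 10 largest rises, the 10 largest falls, the 8 largest transient rises and the 8 largest transient falls among genes with a symbol, 1 line per gene and no error bars, since 1 value per group was deposited. Of the 8 transient rises, 6 appear below their dark value at 6 h, whereas ABCI21 ends at 27.3 FPKM beside 26.3 in the dark and BBX32 ends at 12.1 FPKM beside 1.65.

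Clock and light signalling lists held further transient rises. Of 30 clock genes tested, 9 were lower at 6 h than at 1 h and 1 was higher, against 1.95% and 1.44% of all tested genes. All 9 were transient rises, a course of 0.85% of all tested genes. The list median was -1.31, and 17 members were at least 2-fold lower, against 7.51% of all tested genes. PRR9 (AT2G46790, chromosome 2, 19232649 to 19235087), a light-induced repressor of the morning loop, had 2.16, 36.6 and 1.72 FPKM, a log2 fold of -3.79 (SE 0.78, adjusted p 3.91e-06). The morning factor LHY (AT1G01060, chromosome 1, 33379 to 37871) had 37.0, 134 and 12.9 FPKM, and its partner CCA1 had 33.5, 137 and 17.2 FPKM. Both thus ended at under the dark value, with log2 folds of -3.28 (SE 0.53) and -2.92 (SE 0.53). The evening genes BOA, GI and ELF4 were transient rises as well, with 21.6, 69.8 and 191 FPKM at 1 h and 1.67, 17.2 and 51.7 at 6 h. LNK3, CDF2 and RVE1 had log2 folds of -2.53 (SE 0.57), -1.97 (SE 0.59) and -1.93 (SE 0.56). TOC1, the evening gene of the core loop, had 64.3 FPKM at 1 h and 24.5 at 6 h and was not called (adjusted p 0.121), and PRR7 had 25.5 and 23.4 FPKM. The member that went the other way was CHE, for a TCP factor that represses CCA1, which had 10.5 FPKM in the dark, 5.82 at 1 h and 49.8 at 6 h, a log2 fold of 2.90 (SE 0.60, adjusted p 4.56e-05).

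Of 39 light signalling genes tested, 4 were lower at 6 h and 0 higher, against 1.95% and 1.44% of all tested genes. Their median log2 fold was -0.30. HY5, the bZIP factor that promotes greening, had 95.3, 267 and 45.4 FPKM, a log2 fold of -2.53 (SE 0.52, adjusted p 0.00011). RUP1, a repressor of the UV receptor, had 13.9, 218.5 and 31.4 FPKM, a log2 fold of -2.76 (SE 0.53). CRY3, for a cryptochrome of organelles, had 15.7, 145 and 36.5 FPKM. HFR1, a bHLH factor that holds back PIF proteins, had 45.5, 61.2 and 4.24 FPKM and was a late fall, with a log2 fold of -3.57 (SE 0.55). Of 25 B-box genes tested, 4 were lower and 0 higher: BBX32, BBX29, BBX2 and BBX3, all transient rises. BBX32 (AT3G21150), a regulator that holds back light responses, had the steepest course, with 1.65 FPKM in the dark, 258 at 1 h and 12.1 at 6 h. BBX2 shares its locus with another gene, so its reads may be mixed. In the plastid, SIG5, a light-induced sigma factor that directs the chloroplast RNA polymerase, had 5.42, 157 and 10.5 FPKM and was the only one of 19 tested genes of plastid sigma factors and polymerase-associated proteins to be called (log2 fold -3.77, SE 0.54). PHYA, the far-red receptor gene, had 291, 137 and 42.2 FPKM and was not called between 1 h and 6 h (adjusted p 0.101).

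The anthocyanin pathway split by time. Anthocyanins are red flavonoid pigments, made from the general flavonoid steps by a late branch. Of 27 flavonoid and phenylpropanoid genes tested, 6 were higher at 6 h than at 1 h and 2 lower, against 1.44% and 1.95% of all tested genes. The median log2 fold was -0.11. Of the late branch, DFR, LDOX, UF3GT and AT5MAT had no call at 1 h against dark. DFR (AT5G42800, chromosome 5, 17164141 to 17165918), for the reductase that opens this branch, had 0.672 FPKM in the dark, 0.736 at 1 h and 117 at 6 h. Its log2 fold of 6.09 (SE 1.19, adjusted p 4.41e-07) was the largest rise named, with a SE to match the low early values. LDOX (AT4G22880, chromosome 4, 12004768 to 12006209), for the following oxidase, had 1.53, 1.64 and 103 FPKM, a log2 fold of 5.29 (SE 0.88). UF3GT and AT5MAT, whose enzymes add sugar and malonyl groups to the pigment, had log2 folds of 4.07 (SE 0.98) and 4.42 (SE 1.02), and AT5MAT is not on the list. TT19, needed to bring the pigment to the vacuole, had 3.62, 11.3 and 127 FPKM, and F3'H, for the hydroxylase, had 2.44, 5.31 and 33.3 FPKM; both were already higher at 1 h. The early steps had moved before. CHI had 24.7, 191 and 145 FPKM, F3H had 35.8, 420 and 160 FPKM and FLS1 had 22.5, 105 and 96.6 FPKM, with no call between 1 h and 6 h.

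Regulators of the pathway took opposite courses. PAP1, the MYB activator of anthocyanin genes, had 25.1, 121 and 33.8 FPKM, and MYB111, a MYB activator of flavonols, had 17.0, 68.1 and 19.9 FPKM. Both were transient rises, with log2 folds of -1.81 (SE 0.50, adjusted p 0.011) and -1.72 (SE 0.50, adjusted p 0.0172). MYBL2, a MYB repressor of the late branch, had 6.45, 2.62 and 31.2 FPKM and was a transient fall, with a log2 fold of 3.15 (SE 0.73, adjusted p 0.000143). At 6 h the repressor and the late enzymes were thus high together.

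Photosynthesis lists had positive medians and few calls. Of 28 photosystem and electron transport genes tested, 28 had a log2 fold above 0, against 9098 of all 18698 tested genes. At least 2-fold higher were 26 (7.93% of all tested genes), yet 0 were called. The log2 folds of the 28 had a range of 0.72 to 1.83 and a median of 1.47. At 1 h against dark their median log2 fold was 0.09. With 0.5 of the summed variance, 17 of the 28 were called higher, against 6.26% of all tested genes. PSBO2, for a protein of the oxygen-evolving complex, had 364, 438 and 1561 FPKM (adjusted p 0.0724). Of 19 antenna genes tested, 3 were higher and 15 at least 2-fold higher, against 1.44% and 7.93% of all tested genes. Their median log2 fold was 1.44. LHCB1.4 had 380, 293 and 5031 FPKM, a log2 fold of 4.099 (SE 0.70, adjusted p 1.73e-06). LHCB1.1 and LHCB1.2, neighbouring near copies, had 1378 and 695 FPKM at 1 h and 9484 and 5806 at 6 h, and their reads could be split. LHCB1.3 and RBCS1A belong to 8 genes the authors left untested as too abundant and are listed at 0 at 6 h, so no value is given. Of 28 Calvin cycle and photorespiration genes tested, GAPA2 alone was higher (421 FPKM at 1 h, 1682 at 6 h), with a list median of 0.99.

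Of 26 chlorophyll synthesis genes tested, 1 was called, near the 3.39% of all tested genes, and it went down. PORA (AT5G54190, chromosome 5, 21990912 to 21992812), the protochlorophyllide reductase of dark-grown seedlings, had 2809 FPKM in the dark, 1469 at 1 h and 34.8 at 6 h. Its log2 fold of -5.36 (SE 0.73, adjusted p 1.78e-10) was the lowest of all tested genes. PORB, which serves greening tissue too, had 2424, 1128 and 428 FPKM and was not called (adjusted p 0.44), and PORC had 82.2, 99.9 and 165 FPKM. HEMA1 and CHLH, for early steps, were near their 1 h values, with log2 folds of 0.08 (SE 0.57) and 0.13 (SE 0.77). Carotenoid synthesis and chloroplast import held 0 calls among 15 and 17 tested genes, with medians of 0.05 and -0.04.

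Reserve and starvation lists held more lower than higher calls. Of 21 seed reserve, lipid breakdown and glyoxylate genes tested, 4 were late falls and 1 a late rise, against 0.711% and 0.877% of all tested genes. The median was -0.84. ICL and MLS, for the enzymes that define the glyoxylate cycle, had 4358 and 186 FPKM at 1 h and 407 and 32.5 at 6 h, with log2 folds of -3.42 (SE 1.06, adjusted p 0.0396) and -2.49 (SE 0.62). PCK1, for the step toward sugar, had 820, 634 and 60.2 FPKM. The member that rose was BOU, for a mitochondrial carrier, from 67.2 to 227 FPKM. Of 26 dark and sugar starvation genes tested, 9 were lower and 0 higher, against 1.95% and 1.44% of all tested genes. Of the 9, 7 were continued falls, and the list median was -1.11. DIN1 had 1005, 210 and 13.4 FPKM and ASN1, for the asparagine synthetase of darkness, had 189, 39.7 and 6.18 FPKM, each lower at each time. DIN9 differed, with 10.6, 71.1 and 10.7 FPKM, a transient rise. ASN2, the light-time asparagine synthetase, had 13.7, 22.4 and 124 FPKM and was 1 of 2 risen members, with LBD39, of 17 nitrogen assimilation genes tested.

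Cell wall genes held calls in both directions, and SAUR genes held calls upward alone. Expansin and XTH genes code for proteins that loosen or rebuild cell walls. Of 36 tested, 9 were higher and 1 lower, against 1.44% and 1.95% of all tested genes. The list median was 0.49. Among called members, XTH6 and EXPB1 had the largest log2 folds, 3.35 (SE 1.11) and 3.21 (SE 0.75). XTH6 had 0.574, 1.05 and 19.9 FPKM and EXPB1 had 4.54, 2.84 and 34.5 FPKM. EXPA1 had 32.8, 125 and 774 FPKM and XTH7 had 12.8, 31.9 and 262 FPKM, both rising at each time. EXPA8, XTH9 and XTH33 were transient falls, as EXPA8 with 36.5, 12.8 and 84.7 FPKM. XTH15, a wall gene of dark and shade growth, had 1915, 191 and 15.3 FPKM and was the member that fell. SAUR genes have short transcripts, and their products promote expansion by acid growth. Of 53 tested, 3 were higher and 0 lower, against 1.44% and 1.95% of all tested genes. Of the 53, 16 were at least 2-fold higher and 4 at least 2-fold lower, against 7.93% and 7.51% of all tested genes. The list median was 0.40. SAUR16 had 1.205, 2.75 and 60.1 FPKM, a log2 fold of 4.03 (SE 1.06, adjusted p 0.00211). SAUR50 had 17.35, 32.7 and 261 FPKM and SAUR6 had 11.3, 57.4 and 261 FPKM, with log2 folds of 2.96 (SE 0.59) and 2.17 (SE 0.65). SAUR genes include near copies whose reads could be split.

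Among the 10 largest rises with a symbol, AGP21 (AT1G55330, chromosome 1, 20648465 to 20648891), for an arabinogalactan peptide of the cell surface, had 56.8, 81.2 and 1421 FPKM, a log2 fold of 4.11 (SE 0.62). ACT11, an actin gene, had 3.79, 5.03 and 96.8 FPKM, a log2 fold of 4.02 (SE 0.69). DIR1, for a lipid transfer protein of systemic resistance, had 312, 550 and 7958 FPKM, a log2 fold of 3.85 (SE 0.61). A further 5 genes with no symbol here rose by more than DIR1, the last of these 10, and 3 of them were transient falls. GASA6 (AT1G74670, chromosome 1, 28053286 to 28054149), for a gibberellin-regulated peptide, led the transient falls that have a symbol, with 378 FPKM in the dark, 179 at 1 h and 2725 at 6 h, a log2 fold of 3.92 (SE 0.58, adjusted p 7.96e-09). CAX1, for a calcium exchanger of the vacuole, had 94.8, 45.0 and 424 FPKM, and AGP7 had 91.3, 42.2 and 338 FPKM. XYL4, for a xylosidase and sharing its locus with another gene, had 29.7, 19.2 and 157 FPKM. OFP16 and DCF were near 1 FPKM at 1 h, with 0.937 and 0.829, and had 13.9 and 12.8 at 6 h. GASA6 and the 5 genes after it, with MYBL2 and CHE, were the 8 largest transient falls with a symbol, and each ended above its dark value.

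Genes of protein synthesis and cell division had positive medians and few calls. Of 20 ribosome biogenesis genes tested, 3 were higher, against 1.44% of all tested genes, and the median was 0.97. These were FIB2, NOP56 and NOP5-1, with 17.9, 25.8 and 10.02 FPKM at 1 h and 84.0, 93.5 and 33.8 at 6 h. FIB2 shares its locus with another gene. Of 30 cytosolic ribosomal protein genes tested, 0 were called and the median was 1.02. All 30 had a log2 fold above 0, against 9098 of all 18698 tested genes. Of the 30, 16 were at least 2-fold higher, against 7.93% of all tested genes. Of 23 DNA replication genes, 23 had a log2 fold above 0 and 16 were at least 2-fold higher; PCNA1, the sliding clamp, and MCM3, of the helicase, were called, with log2 folds of 2.35 (SE 0.63, adjusted p 0.00618) and 1.68 (SE 0.55, adjusted p 0.0353). Of 35 genes of cyclins, CDKs and mitosis, 9 were at least 2-fold higher and 0 were called. Stomatal lineage markers had 4 of 13 at least 2-fold higher, 0 calls and a summed level of 155 FPKM in the dark, 177 at 1 h and 390 at 6 h.

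**Figure D4:**
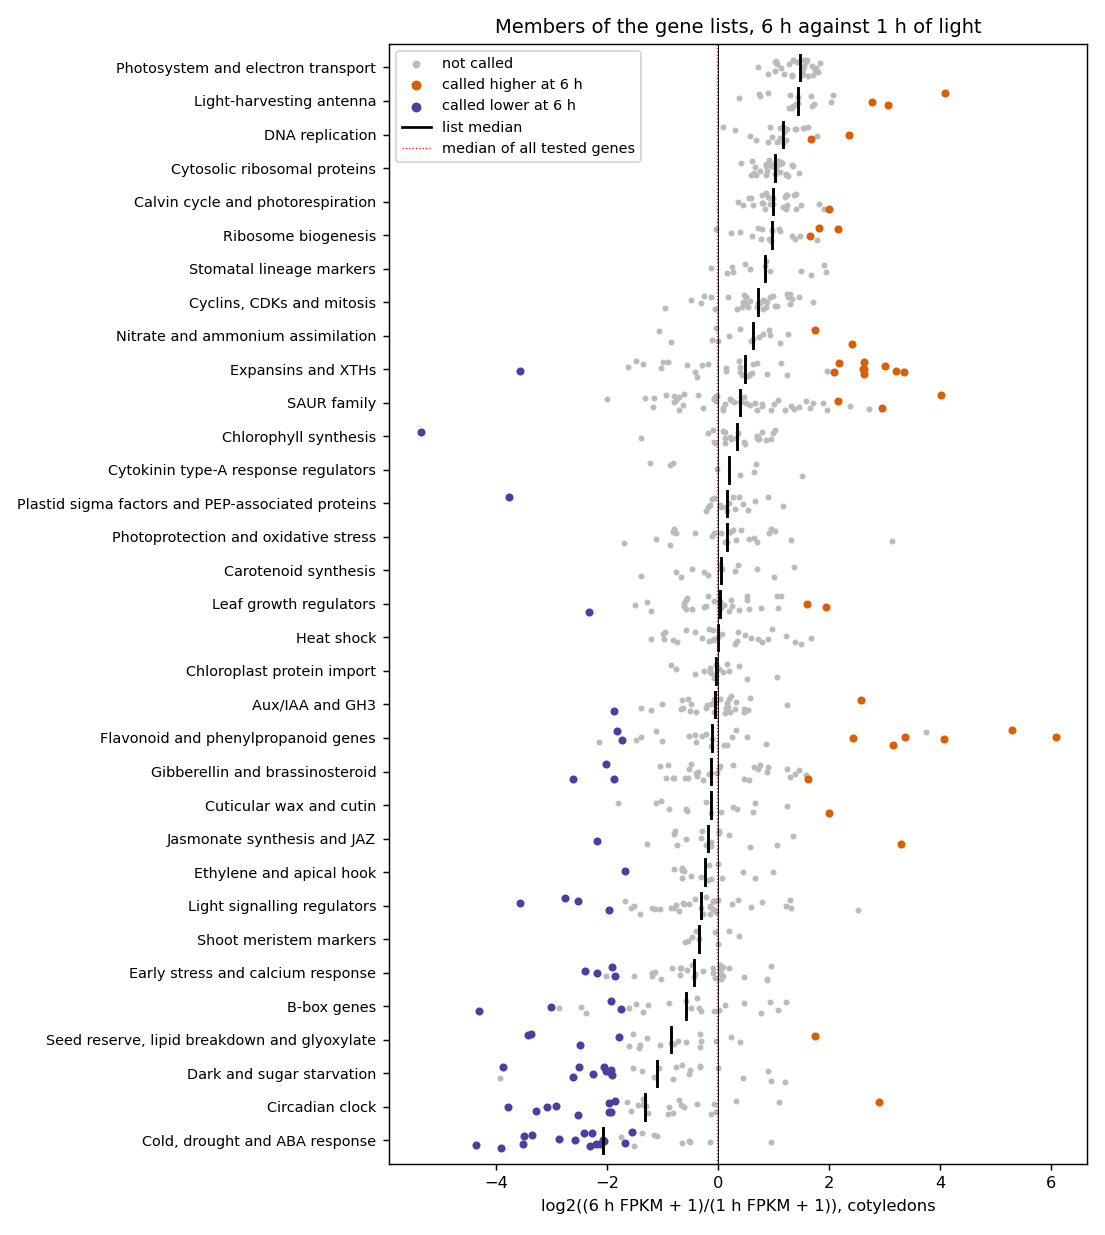
Log2 fold of 6 h over 1 h (FPKM + 1) for each tested member of 33 gene lists, lists ordered by median (black bar), with called members in orange (higher) and purple (lower), others in grey, and a dotted line at the median of all tested genes. The photosystem list has the highest median (1.47) with 0 called members, and the cold, drought and ABA list the lowest (-2.06) with 16.

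The remaining lists held few calls, where 1.44% of all tested genes were called higher and 1.95% lower. Among hormone genes, GH3.9 was higher (0.485 FPKM at 1 h, 7.87 at 6 h) and IAA20 lower of 33 Aux/IAA and GH3 genes. The gibberellin genes GA2OX2, GA2OX6 and GID1B were lower and the growth factor gene HBI1 higher of 35 gibberellin and brassinosteroid genes. GA2OX2, for an enzyme that inactivates gibberellin, was a transient rise with 3.8999, 39.8 and 5.71 FPKM. AOC2, of jasmonate synthesis, had 1.83 FPKM at 1 h and 26.9 at 6 h, while MYC2, the main jasmonate factor, had 29.8 and 5.77, of 18 jasmonate genes. ACO1 was lower of 16 ethylene and apical hook genes. Of 33 early stress and calcium genes, AZF2, ERF11, PUB22 and ZAT10 were lower and 0 higher. Of 32 leaf growth regulators, RAV1 and RAV2 were transient falls, RAV1 with 111, 5.19 and 22.7 FPKM, and GRF7 was lower with 127, 7.79 and 0.743 FPKM. GPAT8, of cutin synthesis, had 12.8 and 54.0 FPKM and was the call among 15 cuticle genes. Heat shock (29 tested), photoprotection (25), cytokinin response regulators (8) and shoot meristem markers (9) held 0 calls.

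The organ label was checked against marker genes. Of 7 root markers, 0 were tested by the authors, EXPA7 was at 0 at all 3 points, and their summed level was 0.44, 0.396 and 0.536 FPKM in the dark, at 1 h and at 6 h. The 10 shoot meristem markers summed to 44.4, 31.3 and 26.9 FPKM; their part in the results was not tested. The antenna genes and ICL, markers of greening and of oil-storing cotyledons, are given above with their levels.

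The change from 1 h to 6 h was then compared with that in hypocotyls by the difference of the 2 log2 ratios, both with no pseudocount, over the root of their 4 summed squared SEs. The organs share no sample. Of 17829 genes tested, the ratio was higher in cotyledons for 184 (1.03%) and lower for 69 (0.387%). AGP21 had 1409 FPKM at 1 h and 237 at 6 h in hypocotyls, against 81.2 and 1421 in cotyledons, a difference of 6.70 (SE 0.85, adjusted p 3.26e-11). ACT11 had 30.2 and 9.34 FPKM in hypocotyls, a difference of 5.96 (SE 0.89). SMT3, of sterol synthesis, had 59.5 and 8.60 FPKM in hypocotyls and 4.40 and 30.4 in cotyledons, a difference of 5.58 (SE 0.76). EXPA1 had 125 FPKM in each organ at 1 h and then 23.2 in hypocotyls, a difference of 5.05 (SE 0.79). Of 35 expansin and XTH genes in this test, 7 had a higher and 1 a lower ratio in cotyledons, and of 47 SAUR genes 3 had a higher ratio, among them SAUR16 and SAUR50 with differences of 5.76 (adjusted p 0.00146) and 4.39 (adjusted p 8.54e-05). FPKM of the 2 organs come from separate tables, and only their ratios were tested.

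The flavonoid list and the cold, drought and ABA list held more genes with a lower than with a higher ratio in cotyledons. Of 21 flavonoid and phenylpropanoid genes in this test, 6 had a lower and 1 a higher ratio. The median 6 h over 1 h fold of the flavonoid list was 1.15 in hypocotyls beside -0.11 in cotyledons. Of 26 cold, drought and ABA genes tested, 7 had a lower ratio in cotyledons and 0 a higher one. Over all genes in this test the shares were 0.387% and 1.03%. The median 6 h over 1 h fold of the cold, drought and ABA list was -0.28 in hypocotyls beside -2.06 in cotyledons. KIN1 (AT5G15960, chromosome 5, 5209898 to 5210727), a cold-induced gene, had 14.5, 113 and 516 FPKM in hypocotyls in the dark, at 1 h and at 6 h, and 161, 237 and 20.08 in cotyledons. The difference was -5.75 (SE 0.89, adjusted p 2.76e-07). RD29B had 17.0, 28.9 and 79.3 FPKM in hypocotyls and 18.6, 25.4 and 4.37 in cotyledons, a difference of -3.996 (SE 0.72). COR78 had 123, 527 and 724 FPKM in hypocotyls, a difference of -4.44 (SE 0.95, adjusted p 0.000892). ERD10, COR47, KIN2 and RAB18 were the other members with a lower ratio. Outside the list, LTI30, a dehydrin gene, had 141, 352 and 765 FPKM in hypocotyls and 65.6, 182 and 14.9 in cotyledons. In both organs the 1 h value of KIN1, RD29B, COR78 and LTI30 was above the dark value, and at 6 h it was lower in cotyledons and higher in hypocotyls than at 1 h. ABF3 itself had 378 FPKM at 1 h and 95.6 at 6 h in hypocotyls, and its ratio was not called different (adjusted p 0.0749). KIN1 and KIN2 are neighbouring near copies whose reads could be split.

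**Figure D5:**
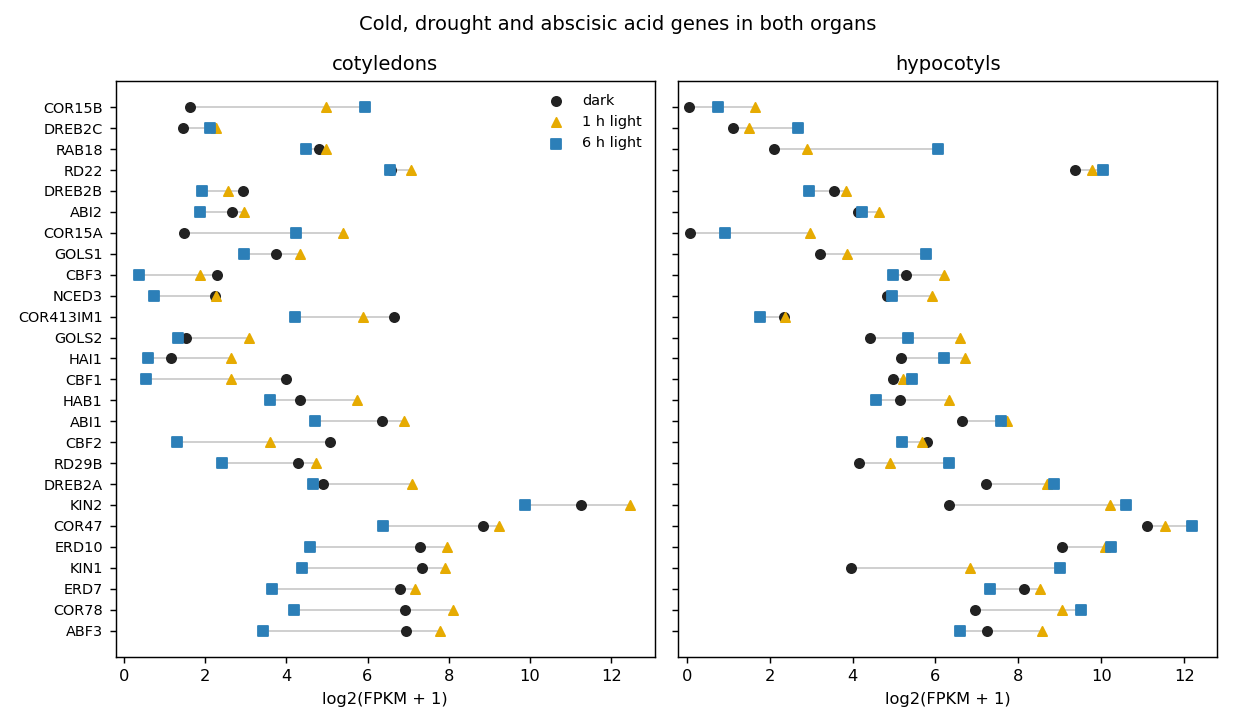
Level (log2(FPKM + 1)) of the 26 tested cold, drought and ABA genes in the dark (circle), at 1 h (triangle) and at 6 h (square) of light, in cotyledons (left) and hypocotyls (right), each the authors' group value. In cotyledons the 6 h square is the lowest mark for most genes, as for KIN1 at 20.08 FPKM, whereas in hypocotyls it is the highest for KIN1 (516 FPKM), COR78 and RD29B.

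For the morning clock genes no difference between organs was called. PRR9 had 36.9 FPKM at 1 h and 2.96 at 6 h in hypocotyls, and the difference of its ratios was -0.77 (SE 0.99, adjusted p 1). For LHY it was 0.55 (SE 0.75). Of 30 clock genes tested, CHE had a higher and ELF4 a lower ratio in cotyledons, against 1.03% and 0.387% of all genes in this test. ELF4 had 208 FPKM at 1 h and 703 at 6 h in hypocotyls against 191 and 51.7 in cotyledons, a difference of -3.64 (adjusted p 0.0016). A p that misses the threshold does not show that organs act alike.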

How the data were processed

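RNA was sequenced on an Illumina HiSeq instrument, per the labels' protocols. The submitters' processing notes name TopHat, Cufflinks and the TAIR10 build, with no versions. The authors deposited, per gene, 1 value per group, taken as FPKM from the table layout since the header names no unit, with a test statistic (unit score), a p-value and a q-value of each light time against dark. Depths and values of single samples were not used here, so no SD is given.

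The SE of each light-over-dark log2 ratio was recovered as its size over the authors' statistic. The log2 ratio of 6 h over 1 h was tested with a two-sided normal test on the root of the 2 summed squared SEs, adjusted by Benjamini-Hochberg over 18698 genes that the authors tested in both tables. Of the 18753 genes tested in both, 55 had a value of 0 or no finite SE. In 40 tested genes a statistic above 3 in size stood beside a p-value above 0.05, and 7 of these are among the 634 called; none of the 7 is named. P-values here reflect the authors' model, not a fit of samples. The smallest size of a called log2 ratio was 0.24, or 1.61 without those 40 genes. Alternatives were other sizes and sources of the SE, thresholds, filters and centring.

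A rule named 83 genes. It took the 10 largest rises and falls among called genes with a symbol and at least 5 FPKM. The 8 largest transient rises and falls were taken in the same way. It also took up to 3 called members per list and direction with at least 1 FPKM, and the 4 genes of smallest p per direction between organs. Other genes, called and not called, are named beside these for description. The comparison and the 34 lists of 904 genes (825 tested) were chosen with earlier results of these data known. Symbols come from RefSeq (TAIR10.1), which held 32810 of the 33557 identifiers. Gene positions are those of the deposited tables, 1-based; promoter sequences use RefSeq gene starts in TAIR10.1, which can differ from these. Calculations used Python 3.11.15, numpy 2.4.6, pandas 2.3.3, scipy 1.17.1 and matplotlib 3.10.9 and were tested on simulated data.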

Additional observations from a re-analysis of the deposited data

Results flagged for a closer look

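The 8 contrasts between organs below were the 4 of smallest p-value of the difference itself in each direction. The log2 ratio of 6 h over 1 h was higher in cotyledons than in hypocotyls by 6.70 for AGP21 (adjusted p 3.26e-11), by 5.58 for SMT3 (adjusted p 1.46e-09), by 5.96 for ACT11 (adjusted p 7.99e-08) and by 5.05 for EXPA1 (adjusted p 3.62e-07). For each of these 4 genes the 6 h value was above the 1 h value in cotyledons and below it in hypocotyls.

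The difference was -5.75 for KIN1 (adjusted p 2.76e-07), -4.73 for DAA1 (adjusted p 1.29e-06), -4.73 for LTI30 (adjusted p 1.75e-06) and -3.996 for RD29B (adjusted p 2.16e-05). These 4 genes were lower at 6 h than at 1 h in cotyledons, and their hypocotyl values were higher at 6 h, as with DAA1 at 10.02 and 14.4 FPKM. All rest on group values, so the number of samples that show each direction is not known.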

How the results depend on the processing

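The counts turn on the size of the SE. With 0.5 of the summed variance, SEs from the authors' p-value, a threshold of 0.01, the 2-fold rule with no test, and both SE changes together (added after seeing the data), in this order, genes higher at 6 h were 1171, 1037, 132, 1483 and 3230, and genes lower 1241, 1096, 208, 1404 and 3069. Late rises were 839, 852, 75, 1120 and 2680, late falls 598, 678, 70, 723 and 2069, transient rises 418, 382, 93, 471 and 668, and transient falls 144, 158, 34, 140 and 290. The organ difference gave 762, 732 and 103 genes higher in cotyledons and 477, 303 and 28 lower under the first 3 of these. Centring on the median gene, a minimum of 1 FPKM and leaving out the 40 genes with contradictory statistics (added after seeing the data) moved none of these counts by over 1.5 times. Rescaling by the dark columns could change nothing, since these columns were identical, so it is no check. Of 68 list counts, each of a list's members called in 1 direction, 41, 31, 16, 45 and 52 moved by over 1.5 times under the 5 changes above, in the same order. Centring moved 1, DNA replication genes called higher, from 2 to 4, and the other 3 settings moved 0. Among the 83 genes named by rule none reversed, but only centring could have changed a sign. Genes named outside the rule were not part of this check. Of the 83, 13 lost their call with SEs from the authors' p-value, 20 at 0.01 and 1 with both SE changes. No paired analysis was possible because the deposited columns are group values with no replicates. For the same reason no replicate was left out in turn. The 2-fold rule, the rescaling and both SE changes together were not run for the organ difference.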

Other observations

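The authors' q-values point to a further set of tests. The 2 cotyledon tables hold 38055 tested rows, but their q-values give whole ranks (within 0.06, for 96.3% of p-values) only if 57124 tests were adjusted together, which leaves 19069 tests in a further set. Of these, 2963 would have the smallest p-value of 5e-05 and 6768 (35.5%) a q-value under 0.05. The tables do not say which comparison this further set was. Its comparison is not known, so the count of 6768 cannot be set against the 634 genes called here. The same holds for the 6299 called with both narrower errors together.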
